A study of Mus musculus with 6 samples.

Results

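Matrix metalloproteinases (MMPs) and tissue inhibitors of metalloproteinases (TIMPs) were described in the anterior nasal septum cartilage of mouse embryos. The 9 genes were taken by name from a given list, 6 MMP genes (Mmp2, Mmp11, Mmp13, Mmp14, Mmp15 and Mmp16) and 3 TIMP genes (Timp1, Timp2 and Timp3), and all 9 were found by Ensembl identifier among the 38924 genes of the count files. RNA came from 3 Apert and 3 WT mice, 1 library each, on the C57BL/6 strain at embryonic day 14.5. Apert mice carried 1 Fgfr2 allele with the S252W change together with EIIA-Cre, a Cre recombinase under a viral promoter that acts broadly from the early embryo, and model a human craniosynostosis syndrome. WT mice were labelled only as WT, with no Cre named. Cartilage was cut out by laser from frozen sections matched for location, and 15 ng of RNA per sample was amplified before sequencing. The comparison asks how the activated receptor genotype bears on transcripts of this cartilage.

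MMPs are zinc-dependent endopeptidases that cut collagens, proteoglycans and other proteins of the extracellular matrix. Most are made as inactive proenzymes whose propeptide has to be removed, and TIMPs block the active enzymes by occupying the catalytic site. MMP14 sits on the cell surface and, with TIMP2 as an adaptor, activates the gelatinase MMP2. In cartilage, matrix is remodelled as chondrocytes grow and mature, and MMP13 is known as the collagenase of hypertrophic chondrocytes and bone-forming cells. ERK signalling below FGF receptors acts in part through AP-1 and ETS factors, which are known regulators of MMP promoters.

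Proximal promoters are shown for 3 genes that differ in how they were measured here: Mmp13 had no count, Mmp14 was among the most abundant members, and Timp3 had the smallest unadjusted p of the members tested. The sequences are from RefSeq on GRCm38.p6, which matched 7 of the 9 members, and run from 250 bases before to 50 bases after the annotated start. Capitals mark matches, on either strand, to any of 4 motifs, and no match of a motif overlapped that of another here. AP-1 was searched as TGANTCA and the GC box as GGGCGG. PEA3, a site of ETS factors, was searched as AGGAAG. The letters used for the TATA motif were TATAAA.
Mmp13 (chr9:7272264-7272563, + strand): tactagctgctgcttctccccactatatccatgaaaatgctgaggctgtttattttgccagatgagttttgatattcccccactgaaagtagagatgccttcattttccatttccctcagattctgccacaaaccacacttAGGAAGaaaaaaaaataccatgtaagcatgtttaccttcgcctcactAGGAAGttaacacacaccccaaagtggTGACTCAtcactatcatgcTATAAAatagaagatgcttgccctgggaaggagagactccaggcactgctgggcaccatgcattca
Mmp14 (chr14:54431348-54431647, + strand): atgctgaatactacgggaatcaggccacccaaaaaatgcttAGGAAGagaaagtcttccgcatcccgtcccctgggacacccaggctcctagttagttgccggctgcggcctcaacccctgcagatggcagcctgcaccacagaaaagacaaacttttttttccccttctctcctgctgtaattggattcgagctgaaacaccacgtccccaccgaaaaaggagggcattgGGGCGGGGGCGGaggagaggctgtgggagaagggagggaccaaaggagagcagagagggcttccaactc
Timp3 (chr10:86300162-86300461, + strand): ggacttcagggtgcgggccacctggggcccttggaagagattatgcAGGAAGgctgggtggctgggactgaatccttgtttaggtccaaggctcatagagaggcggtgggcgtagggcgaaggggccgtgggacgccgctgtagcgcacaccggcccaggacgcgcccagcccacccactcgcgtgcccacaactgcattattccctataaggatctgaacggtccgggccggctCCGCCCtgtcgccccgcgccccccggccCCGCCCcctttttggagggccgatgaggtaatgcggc
Mmp13 was the only member among the 7 with an AP-1 match, 35 bases before the start, and the only one with a TATA box match, 16 bases before the start. The other 6 had a GC box match and Mmp13 had none. Over all 32851 promoters of the same length, 7.81% held the AP-1 letters, 13.6% the TATA box letters and 35.7% the GC box letters. PEA3 letters were found in 4 of the 7 (Mmp13, Mmp14, Timp1 and Timp3) and in 35.4% of all promoters. A match describes the letters and says nothing of whether a factor binds there.

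Total counts were 6760510 to 10527915 in Apert libraries and 8631181 to 10834744 in WT libraries. Levels are given as CPM, the count relative to the TMM-adjusted library total, or as FPKM, scaled by exon length as well, where genes are compared with each other. The cartilage markers Col2a1, Acan, Sox9, Col9a1, Col11a1, Matn1, Comp and Hapln1 were all detected in each library, with a summed level of 33396 to 35793 CPM in Apert and 31381 to 41672 CPM in WT. Col2a1 led this sum, and edgeR called none of the 8, of which 5 had negative and 3 positive log2 fold changes. Unadjusted edgeR p was under 0.05 for Sox9 and Acan, against 11.4% of all genes. Both were lower in Apert (log2 fold change -0.67 and -0.48, edgeR adjusted p = 0.125 and 0.322). Sox9 alone lay without overlap, against 7.7% of all genes in the lower direction. Mitochondrially encoded genes took 34.3% to 40.4% of counts in Apert and 28.8% to 30.2% in WT, and 18245 to 18529 genes had a count in Apert against 18687 to 18942 in WT. The 10 perichondrium and fibrous mesenchyme markers summed to 3014 to 3310 CPM in Apert and 2182 to 2486 CPM in WT, with none at 0. Of these markers Col3a1 and Ogn were higher by the edgeR test, calls that did not hold with library totals alone, with the GC offset or in 5 of the 6 fits that omit a library. Unadjusted edgeR p was under 0.05 for 7 of the 10, all higher in Apert, against 11.4% of all genes. The 10 had 8 positive and 2 negative log2 fold changes, with a median of 0.56. Glia markers summed to 203 to 262 CPM in Apert and 275 to 344 CPM in WT, with Foxd3 at 0 in all libraries. Of the 4 glia markers tested none was called, and all 4 had negative log2 fold changes, with a median of -0.36. Unadjusted edgeR p was under 0.05 for 2 of them. The part of these differences in the results on MMPs and TIMPs was not tested. Osteoblast markers summed to at most 1.36 CPM in any library, with Ibsp and Dmp1 at 0, and endothelial markers to at most 4.37 CPM. Sums of epithelial, neuron, osteoclast, skeletal muscle and macrophage and leukocyte markers were at most 2.59, 5.69, 10.3, 10.6 and 14.4 CPM, with Cdh1, Krt14, Dcstamp, Myod1, Myog and Ckm at 0. Hypertrophic chondrocyte markers summed to 99.2 to 127 CPM in Apert and 112 to 120.1 CPM in WT, most of it Runx2, while Ihh had at most 3 counts in a library. Fgfr2 averaged 519 ± 58.9 CPM in Apert and 630.1 ± 61.7 CPM in WT (SD, n = 3 each), and since a point mutation leaves its exons in place this does not check the genotype labels.

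Of the 9 members, 8 passed the filter on low counts and Mmp13 did not. Mmp2, the gelatinase that digests denatured collagen and collagen IV, and Timp2 were the most abundant per length. Over the 6 libraries Mmp2 ran from 35.3 to 78.0 FPKM with a median of 64.9 FPKM, and Timp2 from 54.1 to 71.3 FPKM with a median of 61.6 FPKM, so their levels overlap. Their means lay at or above those of 97.9% and 97.8% of the 13333 genes tested. Mmp14, the membrane-anchored collagenase, came next at 25.6 to 33.0 FPKM, and Mmp16, another membrane-anchored member, followed at 14.7 to 19.2 FPKM. Timp3, the inhibitor that is held in the matrix, ran from 5.98 to 12.1 FPKM. The order from Timp2 to Timp3 had no overlap between neighbours on this scale. Timp1 ran from 1.56 to 6.19 FPKM, Mmp11 from 2.20 to 3.30 FPKM and Mmp15 from 0.720 to 2.55 FPKM, and from Timp3 down to Mmp15 each gene's range overlapped that of the next. The order of Mmp14 and Mmp16 depends on the length used. When counts were divided by the longest protein-coding transcript in place of all exons, Mmp16 averaged 28.6 FPKM over the 6 libraries and Mmp14 averaged 24.0 FPKM. Timp3 then averaged 15.8 FPKM, against 9.17 FPKM with all exons.

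**Figure D1:**
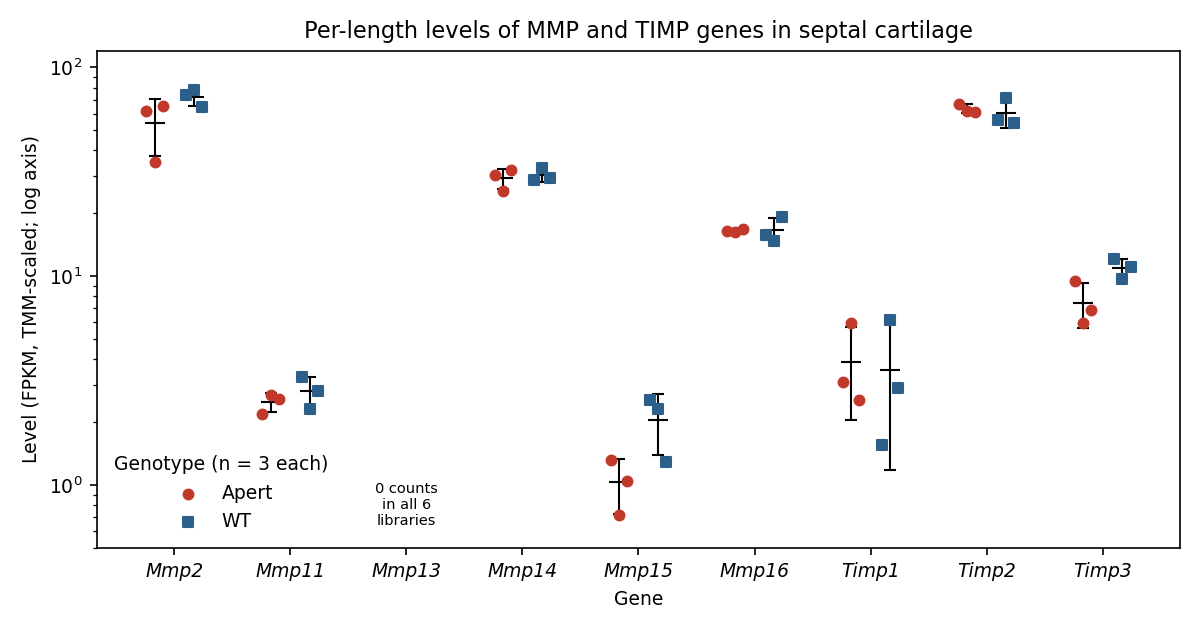
Per-length level of each of the 9 genes (FPKM of TMM-scaled counts, log axis) in 3 Apert and 3 WT libraries; points are libraries and bars the mean ± SD. Mmp2 and Timp2 were highest, Mmp13 had 0 counts in all 6 libraries, and Timp3 was the only tested gene whose Apert points all lie under its WT points.

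None of the 8 tested members passed the genotype test (edgeR quasi-likelihood, Benjamini-Hochberg adjusted p from 0.231 to 0.994), where 0.45% of all 13333 genes tested did. DESeq2 and limma-voom also called none of the 8, where DESeq2 called 1.34% and limma-voom 0.51% of all genes. The 60 genes that edgeR called were 53 higher and 7 lower in Apert, and 17 higher and 24 lower with library totals as the only scaling. Unadjusted p was under 0.05 for 3 of the 8 members (Timp3, Mmp15 and Mmp2) in edgeR, and for 3 in DESeq2 and 3 in limma-voom, against 11.4% of all genes in edgeR. The median log2 fold change of the 8 was -0.11, against 0.01 over all genes. All 5 tested MMP genes and 1 of 3 TIMP genes had a negative log2 fold change, a sign that 48.9% of all genes had. These 6 negative values of 8 became 8 with library totals alone, 5 with limma-voom or the replicate block and 4 with the GC offset. The Apert libraries lay apart from the WT libraries in 1 of the 8, Timp3, against 16.6% of all genes in either direction and 7.7% in the lower direction. In these bulk samples, less RNA per cell and fewer cells that express a gene cannot be told apart.

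Timp3 (ENSMUSG00000020044, mm10 chromosome 10, 86300372 to 86349506, plus strand) encodes the inhibitor that binds to matrix and also blocks ADAM17 and aggrecanases of the ADAMTS family. It was measured at 76.9, 48.7 and 56.1 CPM in Apert replicates 1 to 3, against 98.2, 78.6 and 89.7 CPM in WT replicates 1 to 3. Each Apert library lay below each WT library, with Apert replicate 1 closest to them. The difference, -0.55 ± 0.18 (log2 fold change ± standard error) with a 95% interval of -0.93 to -0.17, did not pass (edgeR adjusted p = 0.231). In the 6 fits that omit a library the adjusted p ran from 0.0263 to 0.575, and Timp3 passed only without Apert replicate 1, where the log2 fold change was -0.79. Timp3 lies inside Syn3, a synapsin gene on the opposite strand, and shares 1733 of its 8144 exon bases with it, so fragments there could not be assigned by a count that ignores strand. Syn3 itself had 49 to 69 counts in Apert and 89 to 100 counts in WT. Scaled for library size, these were 6.80 to 7.94 CPM in Apert and 8.67 to 9.63 CPM in WT.

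Mmp15 (ENSMUSG00000031790, chromosome 8, 95352268 to 95374293, plus strand), a membrane-anchored protease, had the largest log2 fold change of the members. It had 58, 23 and 28 counts in Apert replicates 1 to 3 and 128, 104 and 52 counts in WT replicates 1 to 3. In CPM these were 5.75, 3.13 and 4.54 in Apert and 11.1, 10.02 and 5.63 in WT. The groups overlap, since WT replicate 3 lay below Apert replicate 1. The log2 fold change and its standard error were -0.99 ± 0.37, with a 95% interval of -1.76 to -0.21 (edgeR adjusted p = 0.312). With a correction for GC content, which at 59.6% is highest in Mmp15 among the members, it was -0.68.

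Mmp2 (ENSMUSG00000031740, chromosome 8, 92827328 to 92853417, plus strand) was measured at 187, 107 and 197 CPM in Apert replicates 1 to 3, against 225, 237 and 197 CPM in WT replicates 1 to 3. Apert replicate 2 lay far under the other 5 libraries, and Apert replicate 3 was level with WT replicate 3. The difference on the log2 scale was -0.42 ± 0.19 (SE), with a 95% interval of -0.81 to -0.03 (edgeR adjusted p = 0.403). Without Apert replicate 2 it was -0.20 (adjusted p = 0.733), and with the GC correction it was -0.24 (adjusted p = 0.792).

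The remaining membrane-anchored proteases were at close levels in both genotypes. Mmp14 (ENSMUSG00000000957, chromosome 14, 54431604 to 54441258, plus strand) was at 78.8, 66.6 and 83.4 CPM in Apert replicates 1 to 3 and 74.8, 85.6 and 76.3 CPM in WT replicates 1 to 3. The log2 difference was -0.05 ± 0.16 (SE; edgeR adjusted p = 0.940), and its 95% interval runs from a level 0.770 times that of WT to 1.21 times. Mmp16 (ENSMUSG00000028226, chromosome 4, 17852893 to 18119145, plus strand) was at 142, 141 and 146 CPM in Apert replicates 1 to 3 and 136, 128 and 167 CPM in WT replicates 1 to 3. The 3 Apert values of Mmp16 lay within the range of the WT values. Its 95% interval runs from 0.807 to 1.23 times the WT level (log2 fold change -0.0055, standard error 0.14, edgeR adjusted p = 0.994).

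Mmp11 (ENSMUSG00000000901, chromosome 10, 75923222 to 75932502, minus strand), a stromelysin that furin activates inside the cell, was weakly expressed. It was at 5.65, 6.94 and 6.64 CPM in Apert replicates 1 to 3 and 8.49, 5.98 and 7.25 CPM in WT replicates 1 to 3, and the groups overlap. Its 95% interval is wide, from 0.549 to 1.42 times the WT level (log2 fold change -0.18, standard error 0.33, edgeR adjusted p = 0.883).

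Timp2 (ENSMUSG00000017466, chromosome 11, 118301069 to 118355740, minus strand), the inhibitor that also serves MMP2 activation, was at 260.3, 242 and 239 CPM in Apert replicates 1 to 3. In WT replicates 1 to 3 it was at 218, 278 and 211 CPM, so all Apert values lay inside the WT range. The log2 difference was 0.07 ± 0.14 (SE; edgeR adjusted p = 0.899), and its 95% interval runs from 0.853 to 1.29 times the WT level. Timp1 (ENSMUSG00000001131, chromosome X, 20870166 to 20874735, plus strand), a secreted inhibitor that acts weakly on the membrane-anchored MMPs, had 28, 39 and 14 counts in Apert replicates 1 to 3 and 16, 57 and 24 counts in WT replicates 1 to 3. Its spread within each genotype was wider than the difference between them, and its 95% interval runs from 0.492 to 2.43 times the WT level (log2 fold change 0.13, standard error 0.55, edgeR adjusted p = 0.957). Timp1 lies within Syn1 on the opposite strand without sharing exons, and unspliced Syn1 RNA could not be told from Timp1 in a count without strand. Syn1 had 13 to 22 counts in Apert and 19 to 43 counts in WT, or 1.39 to 2.99 CPM and 1.65 to 4.65 CPM.

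Mmp13 (ENSMUSG00000050578, chromosome 9, 7272514 to 7283333, plus strand), the collagenase of mature cartilage, had 0 counts in all 3 Apert and all 3 WT libraries. A count of 0 allows up to 3 counts per library, which is 0.297 to 0.486 CPM in Apert and 0.260 to 0.325 CPM in WT, for counting error only. Mmp13 was therefore not detectable at this depth in either genotype. Col10a1, the collagen of hypertrophic cartilage, was at 3.90 ± 1.75 CPM in Apert and 5.78 ± 0.788 CPM in WT (SD, n = 3 each; edgeR adjusted p = 0.652). Runx2, the transcription factor that drives Mmp13, was measured at 85.3 ± 10.9 CPM in Apert and 84.7 ± 1.69 CPM in WT (SD, n = 3 each; edgeR adjusted p = 0.992).

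**Figure D2:**
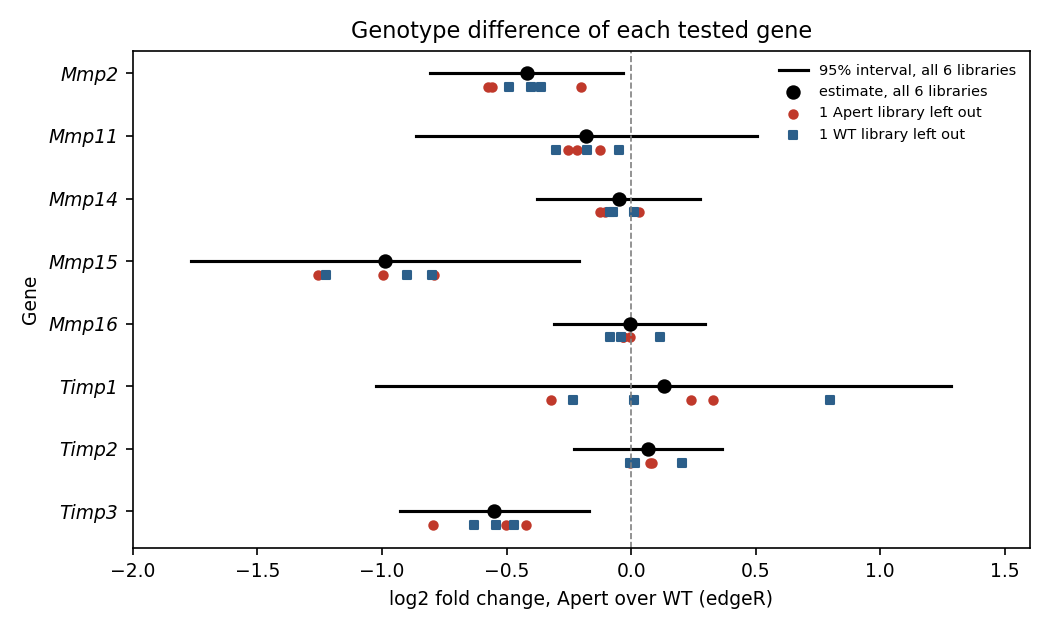
Log2 fold change of each tested gene, Apert over WT, with its 95% interval from all 6 libraries (black) and the estimate with 1 Apert (red circles) or 1 WT library (blue squares) left out. The intervals of Mmp2, Mmp15 and Timp3 lie below 0 before adjustment over all genes, and Timp1 moves from -0.32 to 0.80 with the library left out.

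The library plot of deviations shows which samples carry these values. Apert replicate 2 was the lowest of the 6 libraries for Mmp2, Mmp14, Mmp15 and Timp3, at -0.79, -0.22, -0.92 and -0.57 on the log2 scale relative to each gene's mean. In the same library Timp1 was at 0.79, Mmp16 at -0.02 and Timp2 at 0.01. WT replicate 1 was the highest library for Mmp11, Mmp15 and Timp3 (0.32, 0.84 and 0.44) and the lowest for Timp1 (-0.99). Apert replicate 1, the deepest Apert library, lay at -0.08 for Mmp15 and 0.08 for Timp3.

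**Figure D3:**
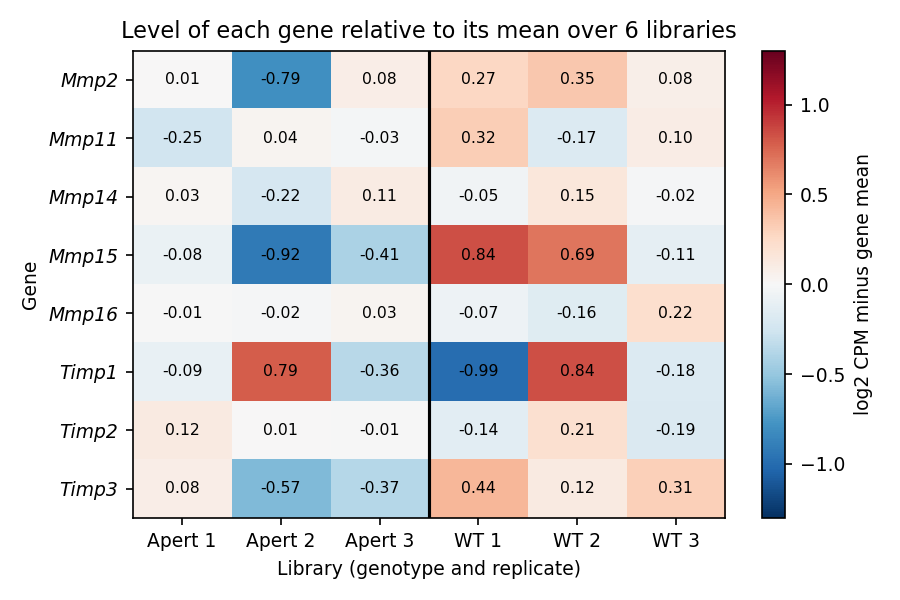
Log2 CPM of each tested gene minus its mean over the 6 libraries, with Apert libraries left of the line and WT libraries right of it. Mmp2, Mmp15 and Timp3 share their lowest value in Apert replicate 2, while Timp1 varies by library within both genotypes.

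The genes whose pattern over the 6 libraries was most like that of Timp3 were Tmed4, a cargo receptor of the secretory pathway, and Lrp6, a Wnt co-receptor, with Pearson r of 0.996 and 0.9905 in log2 CPM. For Mmp15 they were Ppp6r1, a phosphatase subunit gene, and B4galnt4, a glycosyltransferase gene, with r of 0.996 and 0.994. For Mmp2 they were Acot7, an acyl-CoA thioesterase gene, and Fam219b, with r of 0.994 and 0.992. For Timp3, Mmp15 and Mmp2 the search covered 7403, 7404 and 7403 genes, each with a mean of at least 10 CPM. Among these r exceeded 0.9 for 134, 164 and 147 genes. The named genes are the highest of that search, and the 6 points share genotype, depth and library preparation.

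Ratios within a library do not depend on library scaling and were set out for pairs that act on each other. The ratio of Mmp2 to Timp2 in FPKM was 0.923, 0.570 and 1.06 in Apert replicates 1 to 3, against 1.32, 1.09 and 1.20 in WT replicates 1 to 3. The highest Apert ratio lay just under the lowest WT ratio, so the groups did not overlap. The ratio of Mmp14 to Timp2 was 0.454, 0.413 and 0.525 in Apert and 0.515, 0.462 and 0.543 in WT, with overlap. The ratio of Mmp14 to Timp3 was 3.21, 4.28 and 4.67 in Apert and 2.39, 3.41 and 2.67 in WT, where Apert replicate 1 lay under WT replicate 2. With the length of the longest protein-coding transcript, applied to this ratio after seeing the data, Timp3 averaged 15.8 FPKM over the 6 libraries, against 9.17 FPKM with all exons. The Mmp14 to Timp3 ratio was then 1.89 ± 0.351 in Apert and 1.31 ± 0.246 in WT (SD, n = 3 each), with the same overlap. A further 3 ratios were chosen after the values were seen, and the groups overlapped in 2 of them. Mmp2 to Mmp14 was 2.03, 1.38 and 2.02 in Apert and 2.57, 2.37 and 2.20 in WT, without overlap. Mmp16 to Mmp14 was 0.539, 0.634 and 0.524 in Apert and 0.545, 0.447 and 0.654 in WT. Timp2 to Timp3 was 7.07, 10.4 and 8.89 in Apert and 4.64, 7.39 and 4.91 in WT. These ratios describe the libraries and were not tested, and how often ratios of other gene pairs are without overlap was not computed.

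The 6 MMP genes summed to 103 ± 19.9 FPKM in Apert and 124 ± 6.40 FPKM in WT, and the 3 TIMP genes to 74.7 ± 4.40 FPKM in Apert and 74.9 ± 10.7 FPKM in WT (SD, n = 3 each). The MMP sum was 1.41, 1.09 and 1.66 times the TIMP sum in Apert replicates 1 to 3 and 1.79, 1.49 and 1.73 times in WT replicates 1 to 3, with overlap. Mmp2 made up 55.1%, 43.8% and 55.3% of the MMP sum in Apert and 59.5%, 59.8% and 55.1% in WT. Mmp14 made up 27.1%, 31.8% and 27.3% in Apert and 23.2%, 25.3% and 25.0% in WT, and these shares did not overlap. Mmp16 made up 14.6%, 20.2% and 14.3% in Apert and 12.6%, 11.3% and 16.4% in WT, with overlap. Timp2 made up 84.2%, 83.8% and 86.6% of the TIMP sum in Apert and 80.4%, 81.8% and 79.5% in WT, without overlap, and Timp3 made up 11.9%, 8.08% and 9.74% in Apert and 17.3%, 11.1% and 16.2% in WT, with overlap. A share moves with the other genes of its sum, and Mmp14 and Timp2 themselves had log2 fold changes of -0.05 and 0.07. The shares were not tested, and sums and shares depend on the length used, here all exons. With the longest protein-coding transcript Mmp16 averaged 28.6 FPKM over the 6 libraries in place of 16.5 FPKM. Timp3 then averaged 15.8 FPKM in place of 9.17 FPKM.

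**Figure D4:**
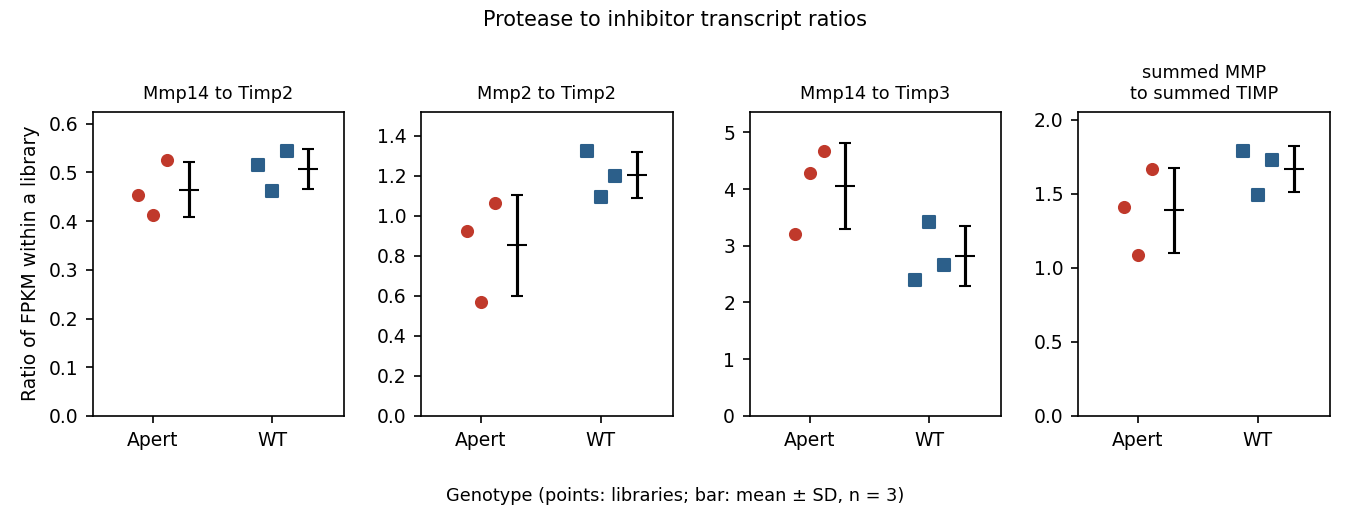
Ratios of FPKM within each library for Mmp14 to Timp2, Mmp2 to Timp2, Mmp14 to Timp3 and the summed MMP to the summed TIMP genes, with points for libraries and bars for mean ± SD in 3 Apert and 3 WT libraries. The Mmp2 to Timp2 points of Apert (0.570 to 1.06) lie under those of WT (1.09 to 1.32), and the groups overlap in the other panels.

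The other MMP genes were low or undetected. Of 17 further family members 7 had no count in any library (Mmp1a, Mmp1b, Mmp3, Mmp7, Mmp8, Mmp10 and Mmp27), 4 passed the filter and none of these was called. Mmp9, a gelatinase that osteoclasts and leukocytes make, was at 2.69 ± 0.227 CPM in Apert and 1.31 ± 1.53 CPM in WT (SD, n = 3 each; log2 fold change 1.02, edgeR adjusted p = 0.683), with 0 counts in WT replicate 3. Mmp19, which shares 789 exon bases with Tmem198b, and Mmp17, a protease held at the membrane by a lipid anchor, had log2 fold changes of -1.03 and -0.72 (standard errors 0.68 and 0.69, edgeR adjusted p = 0.606 and 0.739). Their counts were low, at 3 to 24 a library for Mmp19 and 5 to 26 for Mmp17. The 4 that passed the filter had a median log2 fold change of -0.51, against 0.01 over all genes, with 1 positive and 3 negative values. Counts of these 4 ran from 0 to 31 a library and their standard errors from 0.68 to 0.80, so this median rests on imprecise values.

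Among 7 further inhibitors and clearance genes 4 were tested and none was called (median log2 fold change -0.19). Lrp1, the scavenger receptor that takes up MMP13 and TIMP complexes, was at 330.1 ± 54.3 CPM in Apert and 416 ± 90.2 CPM in WT (SD, n = 3 each; edgeR adjusted p = 0.471). The log2 fold change of Lrp1 was -0.33, and -0.064 with the GC offset. Serpine2, a protease inhibitor of the plasminogen activator system, and A2m, a broad protease trap, had log2 fold changes of -0.26 and 0.52 (edgeR adjusted p = 0.603 and 0.672). With the GC offset these were -0.36 and 0.52. Reck, a membrane-anchored MMP inhibitor, is mentioned here because of its abundance. It was at 38.5 FPKM over the 6 libraries, above the 9.17 FPKM of Timp3 and below the 61.9 FPKM of Timp2. Its log2 fold change was -0.13 (edgeR adjusted p = 0.782). Timp4 had at most 5 counts in a library.

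Of 12 genes for MMP activation 8 were tested and none was called (median log2 fold change -0.27). Pcsk5, a proprotein convertase, was at 92.2, 104 and 83.4 CPM in Apert replicates 1 to 3 and 67.9, 60.3 and 70.6 CPM in WT replicates 1 to 3, without overlap (log2 fold change 0.49, standard error 0.16, edgeR adjusted p = 0.204). With the GC offset it was 0.61. Among tested genes of the other pathway lists, A2m, Adam17 and Col3a1 also lay higher without overlap, and Jund and Hdac4 lower. Over all genes 16.6% were without overlap in either direction. Furin, the convertase that cuts the propeptide of the membrane-anchored MMPs and of MMP11, was at 20.5 ± 3.35 CPM in Apert and 28.8 ± 7.70 CPM in WT (SD, n = 3 each; edgeR adjusted p = 0.434). Bsg, a surface glycoprotein known to induce MMPs, was at 46.7 ± 8.67 CPM in Apert and 67.0 ± 16.3 CPM in WT (SD, n = 3 each; edgeR adjusted p = 0.325). The log2 fold changes of Furin and Bsg were -0.49 and -0.52, and -0.27 and -0.26 with the GC offset. Plasminogen (Plg) had no count, and the plasminogen activator genes Plau and Plat had at most 3 and 7 counts in a library.

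Regulators of Mmp13 gave 6 tested genes of 12 and no call (median log2 fold change -0.06). Jund, an AP-1 gene that shares 543 exon bases with Gm11175, was at 7.28 ± 0.729 CPM in Apert and 10.9 ± 0.981 CPM in WT (SD, n = 3 each; edgeR adjusted p = 0.455). The log2 fold change of Jund was -0.59, and -0.13 with the GC offset. Hdac4, a deacetylase that restrains Runx2, and Fosl2, another AP-1 gene, had log2 fold changes of -0.35 and 0.84 (standard errors 0.24 and 0.68, edgeR adjusted p = 0.628 and 0.690). Fosl2 had 4 to 28 counts in a library. Of the other AP-1 genes none passed the filter. Junb had no count, and Fos, Fosb, Fosl1 and Jun had at most 4, 9, 10 and 29 counts in a library.

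Targets of TIMP3 outside the MMPs gave 6 tested genes of 7 and no call (median log2 fold change 0.09). The tested genes encode proteases, and the untested one, Kdr, encodes a receptor and had at most 5 counts in a library. Adam10, a membrane sheddase, was at 57.0 ± 9.40 CPM in Apert and 44.4 ± 9.16 CPM in WT (SD, n = 3 each; edgeR adjusted p = 0.499). The aggrecanase genes Adamts5 and Adamts4 had log2 fold changes of 1.05 and -0.84 (standard errors 0.59 and 0.68, edgeR adjusted p = 0.526 and 0.694). Both had low counts, at 9 to 44 a library for Adamts5 and 6 to 58 for Adamts4.

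Of 10 matrix substrates, all tested, 1 was called and 9 were not, where 0.398% of all genes were called higher (median log2 fold change 0.08). Col3a1, a fibrillar collagen that MMP14 and MMP13 can cut, rose to 436, 452 and 468 CPM in Apert replicates 1 to 3, against 302, 239 and 297 CPM in WT replicates 1 to 3 (log2 fold change 0.69, standard error 0.14, edgeR adjusted p = 0.0322). The call was kept without Apert replicate 1 and lost without any 1 of the other 5 libraries, with an edgeR adjusted p of 0.0197 to 0.199 over these 6 fits and a log2 fold change above 0 in each. It was also lost with library totals alone (0.54, edgeR adjusted p = 0.102) and with the GC offset (0.79, edgeR adjusted p = 0.0538). Col3a1 is also 1 of the 10 perichondrium and fibrous mesenchyme markers above. Col1a1, the main collagen of fibrous tissue and bone, and Hspg2, the basement membrane proteoglycan perlecan, had log2 fold changes of 0.84 and -0.63 (edgeR adjusted p = 0.165 and 0.250). Col1a1 passed without Apert replicate 1 (edgeR adjusted p = 0.0318), without WT replicate 2 (edgeR adjusted p = 0.0167), with no filter on low counts and with the replicate block, and Hspg2 without Apert replicate 1 (edgeR adjusted p = 0.0304) and with no filter.

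**Figure D5:**
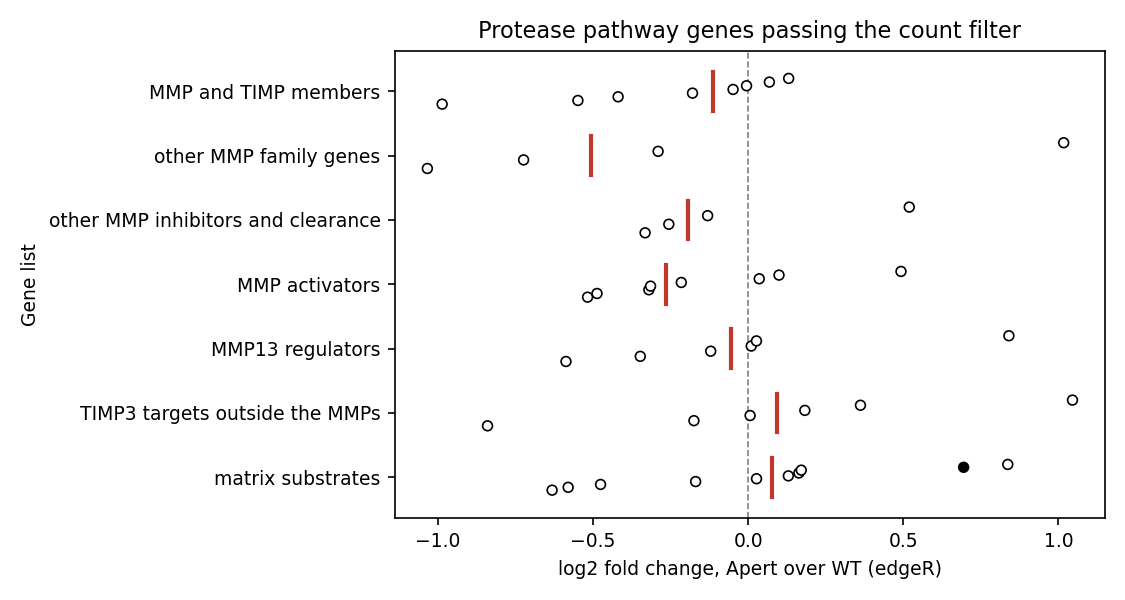
Log2 fold change, Apert over WT, of the members and of each pathway gene that passed the count filter, 1 circle a gene, with the list median as a red line and a filled circle where edgeR called the gene. Col3a1 among the matrix substrates is the only filled circle, a call that did not hold in 5 of the 6 fits that omit a library, and each list has values on both sides of 0.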

How the data were processed

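The deposited files hold raw fragment counts per Ensembl gene, made by the authors with featureCounts 1.4.4 over exons, without regard to strand, on Ensembl release 75 models of GRCm38, per the file headers. The submitters' processing notes also name cutadapt, STAR 2.5.2b and build mm10. Amplification from 15 ng without described molecular identifiers can distort transcripts by GC content, so limits cover counting error only.

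Counts were fitted in R 4.3.3 with edgeR 4.0.16 (filterByExpr, TMM, glmQLFit, glmQLFTest) over 13333 genes, adjusted over all of them at 0.05. The common biological coefficient of variation was 0.245. The standard error is the log2 fold change divided by the square root of F, and 95% intervals are not adjusted. The exon lengths of the deposited files gave FPKM. Alternatives were other scalings and filters, DESeq2 1.42.0, limma-voom (limma 3.58.1), removal of mitochondrial genes, a replicate block, a GC offset fitted with mgcv 1.9.3 (GC content from GENCODE M21 for 98.9% of genes tested) and each library left out. The fit was also run on simulated counts drawn from the means and dispersions of these data. Those counts held no GC distortion or deviating library, so they do not check the calls against either.

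Members and lists were chosen with earlier results of these data known. The naming rule took the 9 members, Fgfr2, up to 3 genes per pathway list with the smallest p, and for the 3 members with the smallest p the 2 genes of mean CPM at least 10 with the highest correlation. Reck, Runx2, Col10a1, Ihh, Timp4, Plg, Plau, Plat, Fos, Fosb, Fosl1, Jun, Junb, Kdr, Adam17, Ogn, Syn1, Syn3 and the genes listed at 0 were named after their values were seen. Sox9 and Acan were singled out among the cartilage markers in the same way. Mice are separate animals, per the series design text, so the spread between libraries includes animals.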

Additional observations from a re-analysis of the deposited data

How the results depend on the processing

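None of the members was called under any scaling, filter, tool, the replicate block, the GC offset or 5 of the 6 fits that leave out a library. The count of members called ran from 0 to 1 with each library left out, the 1 being Timp3 without Apert replicate 1. Mmp2, Mmp15 and Timp3 had negative log2 fold changes in all 15 alternatives, from -0.58 to -0.20, -1.26 to -0.68 and -0.79 to -0.42. Of 120 log2 fold changes of members under alternatives 106 kept their sign and side of the threshold, and 13 changed sign, all in genes within 0.2 of 0. The GC offset gave 0.032 for Mmp11 and 0.10 for Mmp14. Mmp16 was at 0.0063 with limma-voom and 0.0039 with the replicate block. Scaling by library totals alone gave -0.0058 for Timp1 and -0.084 for Timp2, while the median of all genes moved to -0.14. With each library left out, Mmp14 ran from -0.13 to 0.030, Mmp16 from -0.084 to 0.12, Timp1 from -0.32 to 0.80 and Timp2 from -0.0048 to 0.20. Among list genes, examined this way after the data were seen, Ogn was called without Apert replicate 1 but not without any 1 other library (edgeR adjusted p 0.00823 to 0.263), with library totals alone (0.0738) or with the GC offset (0.287), and Col3a1 lost its call in the same settings. Runx2, at 0.0096 on the log2 scale, was at -0.00057 with RLE size factors, -0.15 with library totals, -0.018 with no filter, -0.00098 with DESeq2, -0.0071 with limma-voom and -0.091 to 0.074 with each library left out. Adamts4 ran from -1.46 to 0.12, above 0 without WT replicate 1. The cause of these changes was not tested.

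Over all genes, 60 were called by edgeR, 247 with no filter on low counts, 179 by DESeq2, 172 with the replicate block and 4 with the GC offset. Leaving out Apert replicate 1, 2 or 3 gave 229, 2 or 11 calls, and leaving out WT replicate 1, 2 or 3 gave 15, 23 or 0, a range of 0 to 229. Without WT replicate 3, edgeR still had 1376 genes at an unadjusted p under 0.05. Equal replicate numbers are not stated to mark a litter or day, so the block is an alternative only. Deviations of these libraries from the mean of their own genotype correlated at 0.19, 0.02 and 0.09 over 13333 genes. Apert replicates 1 and 3 deviated most like the WT library of their own number, and Apert replicate 2 most like WT replicate 3. Per-length levels stayed within 1 SD in 26 of 36 cases, and moved in 10, 8 with the length of the longest coding transcript and 2 with library totals alone. Depth limits Mmp11, Mmp15 and Timp1, with 14 to 128 counts a library, and Mmp13 with none. Among list genes it also limits Mmp9, Mmp17, Mmp19, Fosl2, Adamts4 and Adamts5, with 0 to 58 counts a library.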
